A study of Mus musculus with 6 samples.

Results

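The 10 genes described here are Notch receptors (Notch1, Notch2 and Notch3), Notch ligands (Dll1, Dll3 and Jag1) and transcriptional targets of the pathway (Hes1, Hes5, Hey1 and Heyl). They were taken by symbol, and all 10 were among the 24318 gene symbols of the deposited count table. They were measured by poly-A RNA sequencing of bulk RNA from cultured mouse brain astrocytes, in 3 libraries of cells lacking ADGRB1 (KO) and 3 libraries of wild-type cells (WT). ADGRB1, also called BAI1, belongs to the adhesion class of G protein-coupled receptors. Strain, allele and age of the animals are not stated in the labels. Nor is it stated that replicates came from separate cultures, and p-values therefore reflect only how these 6 libraries vary, possibly for technical reasons. The stated purpose was to find which genes change in astrocytes when ADGRB1 is lost.

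Notch receptors are cleaved when a ligand on a neighbouring cell binds them. The freed intracellular domain enters the nucleus, joins the DNA-binding protein RBPJ and turns on genes of the HES and HEY families, which encode transcriptional repressors. In the developing brain the pathway keeps radial glia and neural stem cells undifferentiated and favours astrocytes over neurons. In blood vessels it acts in endothelial and mural cells, where Notch3 is well known.

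KO libraries held 19251608 to 20334440 counts and WT libraries 17460086 to 18897340. Adgrb1 stood at 158, 140 and 117 CPM (a gene's counts relative to the TMM-scaled library total) in KO, against 299, 363 and 317 CPM in WT, so the direction matched the labels in all 6 libraries. Astrocyte markers were abundant, with 12 genes summing to 28750 to 33450 CPM in KO and 25920 to 29730 CPM in WT. Markers of mature oligodendrocytes were present as well (11 genes, 11240 to 15140 CPM in KO and 7612 to 14830 CPM in WT). Mbp and Mobp carried most of that sum, and their means were higher in KO (0.525 and 0.15 on the log2 scale), with overlapping libraries. The other 9 of these genes, among them Mal, Mog and Mag, were each lower in KO without overlap, beside 5.87% of all genes tested. The median over all 11 was -1 on the log2 scale. Of 11 microglia markers 10 were below 0 (median -0.40), summing to 1421 to 1776 CPM in KO and 1688 to 2411 CPM in WT. In such bulk RNA, a different share of cells of a type and a different amount of RNA per cell cannot be told apart.

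With edgeR's quasi-likelihood test, 0 of the 10 genes passed an adjusted p of 0.05 over the 14131 genes tested. Over all genes that test called 0% in either direction. At an unadjusted p under 0.05 there were 3 of the 10 genes, all higher in KO (Hes5, Notch3 and Heyl), where 2.34% of all genes tested were higher (330 genes) and 3.83% lower (541 genes). With scaling by total counts that split over all genes was 180 higher and 747 lower. DESeq2 called 2 of the 10 (Hes5 and Heyl) where it called 0.0991% of all genes tested higher, and limma voom with quality weights called 0, where it called 0.0142% higher. All 10 genes passed the filter on low counts. Their median log2 fold change, KO over WT, was 0.22, beside 0.01 for all genes tested, and 8 of the 10 were above 0. The KO and WT libraries did not overlap, with KO higher, for 4 of the 10 genes (Notch1, Notch3, Hes5 and Heyl), beside 5.28% of all genes tested, and with KO lower for 0 of the 10, beside 5.87%. These genes were chosen with earlier results of these data known, so these counts are a description.

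The sequences just before the start sites of Hes5 and Notch3 are shown because, of the 3 genes with an unadjusted p under 0.05, these are the ones with a RefSeq window. Each window holds 250 bases before and 50 bases after the start (RefSeq, GRCm38.p6). It is written 5′ to 3′ on the gene's strand, with the core of the RBPJ motif, TGGGAA or its reverse complement, in capitals. The Hes5 window is chr4:154960673-154960972 on the plus strand, and the Notch3 window is chr17:32166841-32167140 on the minus strand.
Hes5: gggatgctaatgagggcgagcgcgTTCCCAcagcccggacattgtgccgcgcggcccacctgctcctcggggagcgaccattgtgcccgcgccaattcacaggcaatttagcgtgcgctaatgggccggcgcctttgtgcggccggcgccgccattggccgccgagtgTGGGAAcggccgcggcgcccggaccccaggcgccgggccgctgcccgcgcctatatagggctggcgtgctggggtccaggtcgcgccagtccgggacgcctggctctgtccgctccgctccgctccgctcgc
Notch3: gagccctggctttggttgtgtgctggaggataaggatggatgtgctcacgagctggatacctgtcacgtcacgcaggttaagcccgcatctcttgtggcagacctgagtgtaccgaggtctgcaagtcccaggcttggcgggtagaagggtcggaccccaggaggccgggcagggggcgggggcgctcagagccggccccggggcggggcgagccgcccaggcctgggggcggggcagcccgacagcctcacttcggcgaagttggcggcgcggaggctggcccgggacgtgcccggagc
The Hes5 window held the core 2 times, with its first base at -226 (on the opposite strand) and at -82 (on the gene's strand) from the start site. Both matches lie within the longer form GTGGGAA, so the counts of these motifs overlap. Among all 32851 RefSeq windows of this length, searched on both strands, 25.6% held TGGGAA and 6.38% held GTGGGAA. The Notch3 window held neither of these. Of the 10 genes 7 had a window, in all 8 windows, and Hes5's was the only one of these with TGGGAA. Hes1, Hey1 and Heyl had no window, so Hes5 was the only target gene that was searched. E-box and N-box-like motifs that HES and HEY proteins are known to bind were searched too. CACGTG had no match in the 8 windows, against 7.15% of all windows. CACNAG occurred in the windows of Notch1 (3 times), Notch2, Notch3 (2 times) and in 1 of the 2 windows of Dll1, against 42.5% of all windows. CACGCG occurred in the windows of Notch2, of Jag1 (2 times) and in 1 of the 2 windows of Dll1, against 9.27% of all windows. A match says that these letters are present, not that a protein binds there.

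Levels of different genes were compared as TPM, which divides counts by exonic length. Hes5 was the highest of the 10 in both groups, at 581 ± 72.5 TPM in KO and 406 ± 79.4 TPM in WT (SD, n = 3 each). Its lowest library lay above the highest library of every other gene of the 10. Hey1 and Notch1 followed, at 99.4 and 85.1 TPM in KO and 94.7 and 78.0 TPM in WT, then Notch2 and Hes1, and the library ranges of neighbours in this order overlapped in both groups. Dll3 was the lowest, at 6.35 ± 2.21 TPM in KO and 9.60 ± 3.52 TPM in WT, and its range lay below that of its neighbour in the order in both groups. Heyl was sixth in both groups. Notch3 was seventh in KO, with a range above that of Jag1, and ninth in WT, where its range lay within that of Jag1 and below that of Dll1. The 3 ligands together summed to 32.5 to 39.7 TPM in KO and 35.5 to 54.4 TPM in WT. The 3 receptors summed to 152 to 192 TPM in KO and 120 to 173 TPM in WT, and the 4 targets to 709 to 922 TPM in KO and 474 to 667 TPM in WT, so of these sums only that of the targets did not overlap between the groups. Hes5 made up on average 73.6% of the target sum in KO and 70.3% in WT, so that sum mostly restates Hes5. TPM are shares of each library without TMM scaling.

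**Figure D1:**
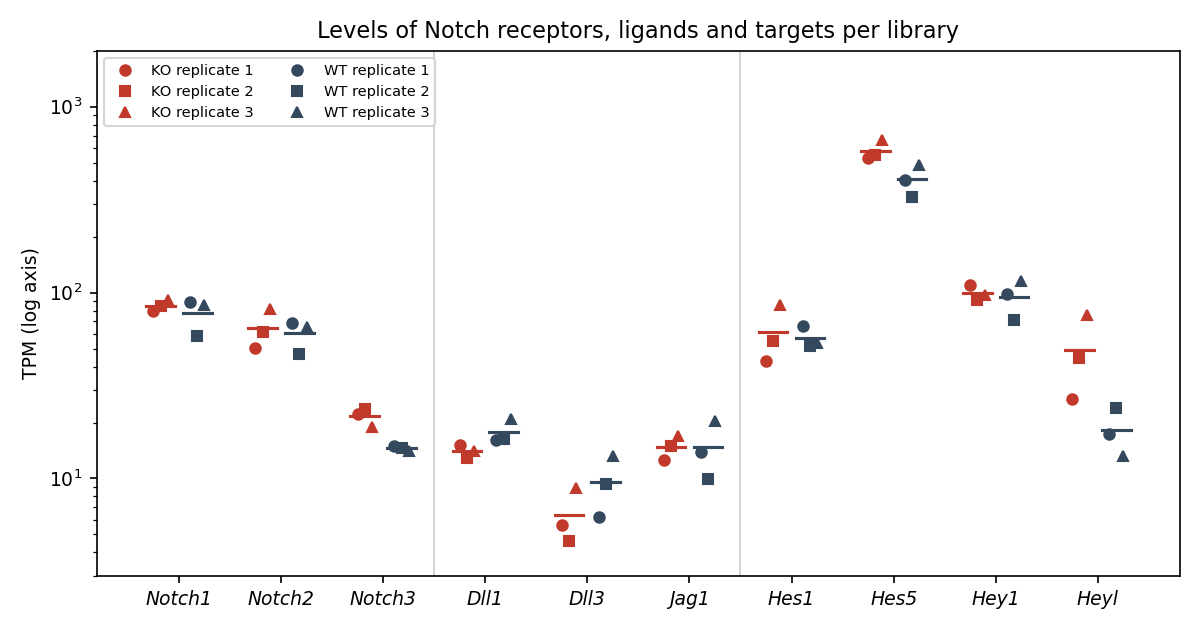
Level of each gene in TPM (log axis) in the 3 KO libraries (red) and the 3 WT libraries (blue), with the marker shape giving the replicate and the bar the group mean. Hes5 is highest throughout, Heyl in KO runs from 26.9 to 76.0 TPM, and the WT values of Notch3 lie between 14.1 and 15.0 TPM.

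Among the receptors, Notch3 had the largest difference. It stood at 54.3, 54.6 and 39.5 CPM in KO, against 30.3, 32.4 and 27.6 CPM in WT. The 3 KO libraries were all above the 3 WT libraries, with KO replicate 3 nearest to them. On the log2 scale KO stood 0.72 ± 0.18 (SE) above WT, 1.64-fold, with an edgeR p of 0.00232 and an adjusted p of 0.474. Notch3 (chromosome 17, 32120820 to 32166852, GRCm38, minus strand) shares 6.03% of its exonic bases with Gm17276 on the opposite strand, and since the use of strand in counting is not given its value is uncertain to that extent.

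Notch1, the receptor most studied in neural stem cells, stood at 342, 341 and 335 CPM in KO, against 318, 230 and 297 CPM in WT. The KO libraries lay close together and above all WT libraries, of which WT replicate 2 was lowest. That gave 0.27 ± 0.15 (SE) on the log2 scale, at an adjusted p of 0.825 in edgeR. Notch2, the other receptor of high level here, was at 193 ± 32.4 CPM in KO and 165 ± 23.8 CPM in WT (SD, n = 3 each), with overlapping libraries and a log2 fold change of 0.22 ± 0.17 (SE). Notch1 shares 7.50% of its exonic bases with 0610009E02Rik and 2.91% with Gm13568, both on the opposite strand, and Notch2 shares 5.02% with Gm42820 on the same strand. Per length, Notch1 made up 49.9% ± 2.43 of the TPM of the 3 receptors in KO and 50.8% ± 1.77 in WT, Notch2 37.3% ± 4.89 and 39.4% ± 0.40, and Notch3 12.8% ± 2.59 and 9.76% ± 2.02, in KO and in WT. The share of Notch3 overlapped between groups, since KO replicate 3 (9.87%) lay below WT replicate 2 (12.1%).

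The KO and WT libraries overlapped for all 3 ligands, and 0 of the 3 passed the test. Dll1, a transmembrane ligand that activates receptors on neighbouring cells, was at 19.3, 15.4 and 15.2 CPM in KO, against 17, 18.8 and 21.2 CPM in WT. Dll3, which in mouse sits largely inside the cell and does not activate receptors in trans, was at 4.82, 3.74 and 6.48 CPM in KO, against 4.43, 7.35 and 9.12 CPM in WT. KO replicate 1 lay within the WT range for both genes. The log2 fold changes were -0.19 ± 0.20 (SE) for Dll1 and -0.47 ± 0.37 (SE) for Dll3. Jag1, a ligand of the Jagged branch, was at 22.2, 24.8 and 25.3 CPM in KO, against 20.2, 15.9 and 28.8 CPM in WT. The KO libraries of Jag1 fell within the WT range, and the log2 fold change of 0.16 ± 0.23 (SE) was at -0.03 without WT replicate 2. Dll1 shares 20.5% of its exonic bases with A930024N18Rik on the opposite strand and is uncertain. Markers of oligodendrocyte precursors, cells in which Dll1 and Dll3 are known to be expressed, were lower in KO for 9 of 10 genes, and their sum was 1154 to 1672 CPM in KO and 1819 to 2371 CPM in WT, without overlap. Pdgfra, the growth factor receptor of these cells, was at 360, 250 and 390 CPM in KO, against 618, 465 and 641 CPM in WT. In KO, replicate 2 was lowest for Dll3 and Pdgfra, and Pdgfra was highest in replicate 3. Dll1 was nearly equal in replicates 2 and 3 in CPM, and lowest in replicate 2 in TPM (12.9 against 14.0). In WT, replicate 3 was highest for all 3 genes, while the lowest library was replicate 1 for Dll3 and Dll1 and replicate 2 for Pdgfra. The part of these cells in the values of the ligands was not tested.

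Hes5, the main Notch effector of neural progenitors beside Hes1, stood at 218, 213 and 233 CPM in KO, against 139, 123 and 160 CPM in WT. The KO libraries lay within a narrow band, and the lowest of them was 1.33 times the highest WT library. KO exceeded WT by 0.65 ± 0.14 (SE) in log2 units, 1.57-fold, with an edgeR p of 0.00107 and an adjusted p of 0.369. It ranked 41st by p among the 14131 genes tested. DESeq2 gave an adjusted p of 0.0142. Hes5 (chromosome 4, 154960923 to 154962371, GRCm38, plus strand) shares 31.8% of its exonic bases with Gm20421 on the opposite strand and is uncertain to that extent.

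Hes1, the closest relative of Hes5 in role, was at 26.3, 31.8 and 44.7 CPM in KO, against 33.6, 29.1 and 26.3 CPM in WT. The groups overlapped, and only KO replicate 3 lay above all WT libraries. Its log2 fold change of 0.21 ± 0.22 (SE) was at -0.03 without KO replicate 3. The TPM of Hes5 was 12.4, 9.99 and 7.78 times that of Hes1 in KO and 6.17, 6.30 and 9.09 times in WT, so these ratios overlapped.

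Heyl had the largest log2 fold change of the 10 genes. It encodes a HEY repressor known as a Notch target in vascular smooth muscle. Heyl stood at 41.5, 64.6 and 99.9 CPM in KO, against 22.3, 33.6 and 16.2 CPM in WT. The groups did not overlap, but the KO libraries were spread widely, and the lowest of them was 1.24 times the highest WT library. The difference was 1.52 ± 0.37 (SE) in log2 units, 2.86-fold, with an edgeR p of 0.00327 and an adjusted p of 0.508, and DESeq2 gave an adjusted p of 0.00339. Without KO replicate 3 it was 1.14 and without WT replicate 2 it was 1.83. Heyl (chromosome 4, 123233556 to 123249875, plus strand of GRCm38) has no exon overlap with another gene in GENCODE M21.

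Hey1, the other HEY gene, was at 109, 84.6 and 81.4 CPM in KO, against 80.0, 64.1 and 90.9 CPM in WT. Its groups overlapped, and the log2 fold change was 0.23 ± 0.18 (SE). Per length, Hey1 exceeded Heyl in every library, by 4.11, 2.05 and 1.28 times in KO and by 5.62, 2.99 and 8.76 times in WT. Of the TPM of the 4 targets, Hes5 made up 73.6% ± 1.43 in KO and 70.3% ± 2.15 in WT, Hey1 12.8% ± 2.55 and 16.3% ± 1.13, Hes1 7.57% ± 1.62 and 10.1% ± 1.78, and Heyl 6.01% ± 2.23 and 3.32% ± 1.57, in KO and in WT (SD, n = 3 each).

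**Figure D2:**
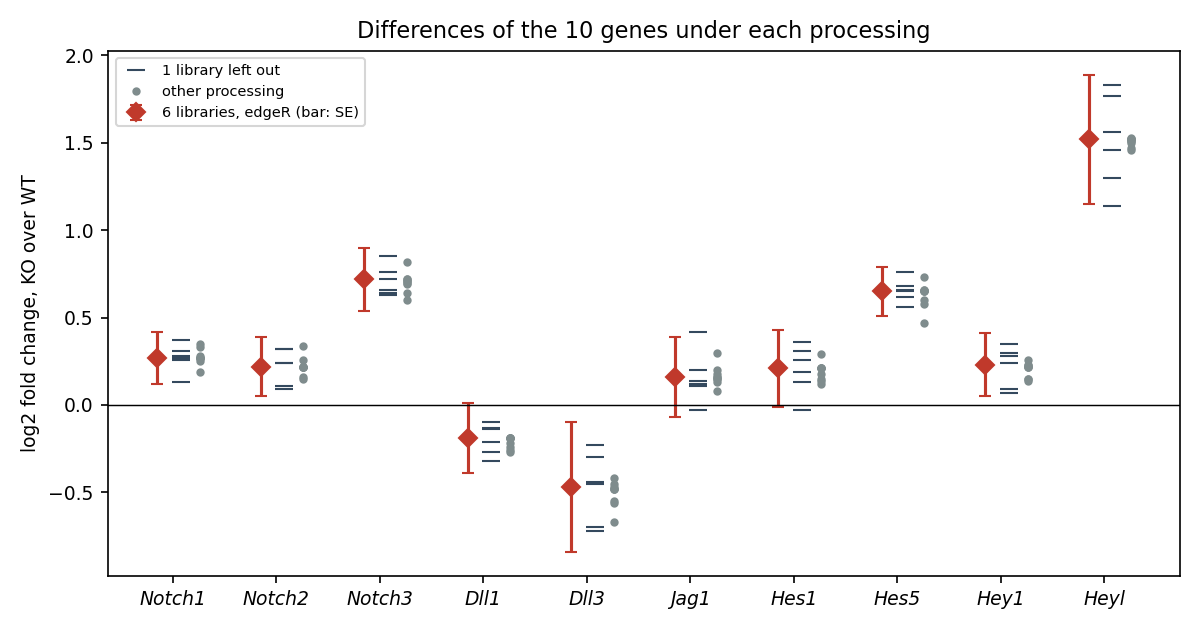
Log2 fold change of each gene, KO over WT (vertical axis). Red diamonds with SE bars are the edgeR values with 6 libraries, dashes the fits that left out 1 library and grey dots the other processing alternatives. Heyl stays between 1.14 and 1.83, Hes5 between 0.47 and 0.76 and Notch3 between 0.60 and 0.85, while Jag1 and Hes1 cross 0 in 1 fit each.

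The libraries differed in their trend with GC content and with exonic length. The exons of the 10 genes ranged in GC content from 48.8% for Jag1 to 62.1% for Hes5, with 61.0% for Dll3, 59.6% for Notch3, 57.1% for Notch1 and 55.2% for Heyl. Across genes, Spearman's correlation of a library's deviation with GC content was 0.388, 0.355 and -0.394 in KO and -0.160, 0.057 and -0.334 in WT. The libraries above 0 (KO replicates 1 and 2 and WT replicate 2) and those below 0 were therefore also compared as separate sets. In the set above 0, with 1 WT library, KO minus WT in log2 CPM came to 0.81 for Hes5, 0.75 for Notch3 and 0.62 for Heyl. In the set below 0, with 1 KO library, it was 0.64 for Hes5, 0.45 for Notch3 and 2.39 for Heyl. Notch2 was at 0.33 and 0.35 in the 2 sets. Notch1 (0.57 and 0.12), Jag1 (0.56 and 0.07) and Hey1 (0.58 and -0.07) were nearer to 0 in the set below 0, and Hes1 (-0.01 and 0.59) in the set above 0. Dll1 was at -0.12 and -0.32, and Dll3 at -0.78 and 0.03. With the set as a batch term, Hes5 had a log2 fold change of 0.73 and passed (edgeR adjusted p = 0.00901), where 0.0991% of all genes tested were called higher. Notch3 (0.60, adjusted p = 0.119) and Heyl (1.52, adjusted p = 0.597) did not. This split was derived from the expression values and is not in the labels, WT replicate 2 lies near 0, and each set has 1 library of one of the groups. With the trend in GC content and length removed per library, Hes5 was at 0.47, Notch3 at 0.69 and Heyl at 1.5 (edgeR adjusted p = 0.558, 0.182 and 0.471 in that order).

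The wider pathway held 70 genes in 8 roles, of which 67 were tested. With edgeR, 0 were called in either direction. At an unadjusted p under 0.05, 5 were higher and 0 lower, beside 2.34% and 3.83% of all genes tested, and the median log2 fold change was 0.02, beside 0.01 for all genes tested. DESeq2 called 2 higher, Hes5 and Heyl, beside 0.0991% of all genes tested, and limma voom called 0, beside 0.0142% of all genes tested. KO and WT did not overlap for 10 genes higher in KO and 1 lower, beside 5.28% and 5.87% of all genes tested. These counts include the 10 genes described above. Without them 57 were tested, 27 above 0 and 30 below, with a median of -0.01. Of these, 2 were higher and 0 lower at an unadjusted edgeR p under 0.05, and 6 higher and 1 lower did not overlap, beside the same shares. All 9 tested genes listed as targets were above 0 (median 0.44), where 7312 of the 14131 genes tested were. Of the 9, 4 were higher in KO without overlap (Hes5, Heyl, Nrarp and Hes7), beside 5.28% of all genes tested. The 9 include Hes1, Hes5, Hey1 and Heyl, which were chosen with earlier results known. They also include Hes7, at 1.07 CPM in KO and 0.60 CPM in WT. Whether Notch induces each listed gene, Hes6 among them, in these cells was not tested. In the other roles the medians lay between -0.19 (7 ligands) and 0.25 (4 receptors), with -0.06 for the 6 genes of the nuclear complex, -0.05 for 14 corepressors, 0.00 for 10 cleavage genes, 0.10 for 5 glycosylation genes and -0.02 for 12 genes of ubiquitin transfer and endocytosis.

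Nrarp and Hey2 were the targets outside the 10 with an unadjusted p under 0.05. Nrarp, which encodes a small ankyrin protein that limits Notch signalling, was at 293, 208 and 210 CPM in KO, against 169, 175 and 181 CPM in WT. The groups did not overlap, and the difference was 0.44 ± 0.16 (SE) in log2 units, with an edgeR p of 0.0230 and an adjusted p of 0.760. Without KO replicate 1 it was 0.25, with an edgeR p of 0.125. Nrarp shares exonic bases with Gm38287 on the opposite strand and is uncertain. Hey2, the third HEY gene, was at 19.5, 39.2 and 87.5 CPM in KO, against 12.9, 24.2 and 14.8 CPM in WT. KO replicate 1 lay within the WT range, and the difference was 1.49 ± 0.53 (SE) in log2 units, with an edgeR p of 0.0259 and an adjusted p of 0.786. Dtx1, a Deltex ubiquitin ligase and Notch target, was at 167 ± 25.0 CPM in KO and 136 ± 21.9 CPM in WT (SD, n = 3 each). Hes2 was at 0 counts in all 6 libraries, and Hes3 had 8 counts in KO replicate 3 and 0 in the other libraries.

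In the roles other than receptors and targets, 0 genes had an unadjusted p under 0.05, beside 2.34% of all genes tested for higher and 3.83% for lower. Rbpj, singled out because the pathway runs through its protein, was at 36.4, 37.5 and 50.5 CPM in KO, against 44.3, 35.9 and 47.8 CPM in WT, with a log2 fold change of -0.04 ± 0.19 (SE). In each role, a gene of high TPM outside the 10 is named here. Maml2, a coactivator, was at 44.6 ± 16.8 CPM in KO and 53.3 ± 6.18 CPM in WT (SD, n = 3 each). Ctbp1, a corepressor, was at 197 ± 31.1 and 183 ± 7.73 CPM, and Psenen, a subunit of gamma-secretase, at 57.7 ± 6.41 and 53.9 ± 3.88 CPM, in KO and in WT. Lfng, a fringe glycosyltransferase that alters how receptors respond to ligands, was at 460 ± 148 CPM in KO and 400 ± 107 CPM in WT, the highest mean level per length of the whole list (645 and 618 TPM), although in KO replicate 3 it was at 457 TPM and Hes5 at 664 TPM. Dtx3, another Deltex ligase, was at 154 ± 11.5 CPM in KO and 128 ± 8.37 CPM in WT, without overlap (log2 fold change 0.27, edgeR adjusted p = 0.819). Dner, an atypical ligand, was at 222 ± 4.04 CPM in KO and 196 ± 7.39 CPM in WT, also without overlap (0.18, edgeR adjusted p = 0.834). Notch4, a receptor known from endothelial cells, was at 14.0, 7.53 and 9.23 CPM in KO, against 6.23, 20.5 and 7.43 CPM in WT. Psenen overlaps Gm49396 and U2af1l4 on the opposite strand and Dner overlaps Mir5126, so both are uncertain.

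**Figure D3:**
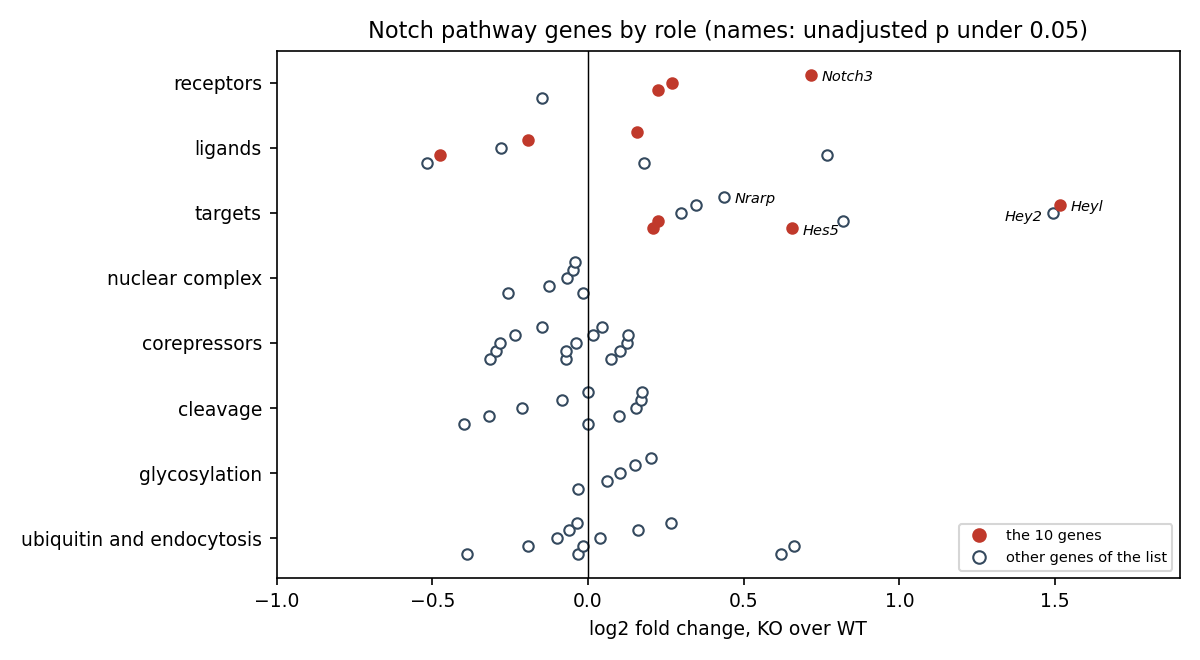
Log2 fold change of the 67 tested pathway genes, KO over WT (horizontal axis), by role. Filled red points are the 10 genes and open points the others, and names mark an unadjusted p under 0.05. All 9 tested genes listed as targets lie above 0, while the nuclear complex lies between -0.26 and -0.02.

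Some marker genes of other cell types were, as Heyl was, highest in KO replicate 3. Fabp7, a fatty acid binding protein of radial glia and astrocytes, was at 116, 396 and 1159 CPM in KO, against 93.6, 199 and 173 CPM in WT. Vtn, which encodes vitronectin and marks pericytes, was at 20.6, 182 and 368 CPM in KO, against 3.33, 72.8 and 29.0 CPM in WT. Cldn5, the tight junction gene of brain endothelium, was at 1.15, 32.7 and 64.4 CPM in KO, against 0.71, 5.19 and 6.08 CPM in WT. In each of the 3 genes, and in Hey2 and Heyl, KO replicate 3 was highest and KO replicate 1 lowest of the KO libraries, but in WT the lowest library was replicate 3 for Heyl and replicate 1 for the other genes. These 3 genes were singled out after their values were seen.

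The sums of the mural, endothelial and radial glia lists overlapped between KO and WT both with and without these 3 genes. Of 14 mural markers 11 were tested and 4 of these were above 0. The list summed to 167, 311 and 488 CPM in KO, against 133, 182 and 157 CPM in WT, and without Vtn to 146, 129 and 120 CPM in KO, against 130, 109 and 128 CPM in WT. Rgs5, a defining pericyte gene, was at 2.72, 1.87 and 2.44 CPM in KO, against 3.28, 4.67 and 4.88 CPM in WT. Myl9, a myosin light chain of smooth muscle, separated the groups the other way, at 10.5, 13.8 and 12.02 CPM in KO, against 8.64, 7.30 and 7.33 CPM in WT. Pdgfrb was at 125, 106 and 96.9 CPM in KO, against 109, 84.4 and 101 CPM in WT. The mural sum without Vtn therefore mostly restates Pdgfrb. Higd1b, Ndufa4l2 and Cnn1 were near 0 and were not tested. Of 14 endothelial markers 5 were above 0. The list summed to 15.9 to 90.5 CPM in KO and 11.4 to 51.3 CPM in WT, and without Cldn5 summed to 14.7, 19.2 and 26.1 CPM in KO, against 10.7, 20.7 and 45.3 CPM in WT. Of 10 radial glia and progenitor markers 8 were above 0. The list summed to 1192 to 2265 CPM in KO and 989 to 1230 CPM in WT, and without Fabp7 to 1076, 1026 and 1106 CPM in KO, against 896, 793 and 1058 CPM in WT. Of 12 astrocyte markers 11 were above 0, and Gfap, the intermediate filament of astrocytes, was at 1596, 925 and 724 CPM in KO, against 654, 593 and 589 CPM in WT. Of the markers of mature oligodendrocytes 9 of 11 were below 0, and of those of microglia 10 of 11. The summed levels of both lists overlapped between the groups, while that of the oligodendrocyte precursor list did not. The part of these cell types in the values of Heyl, Hes5 and Notch3 was not tested.

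**Figure D4:**
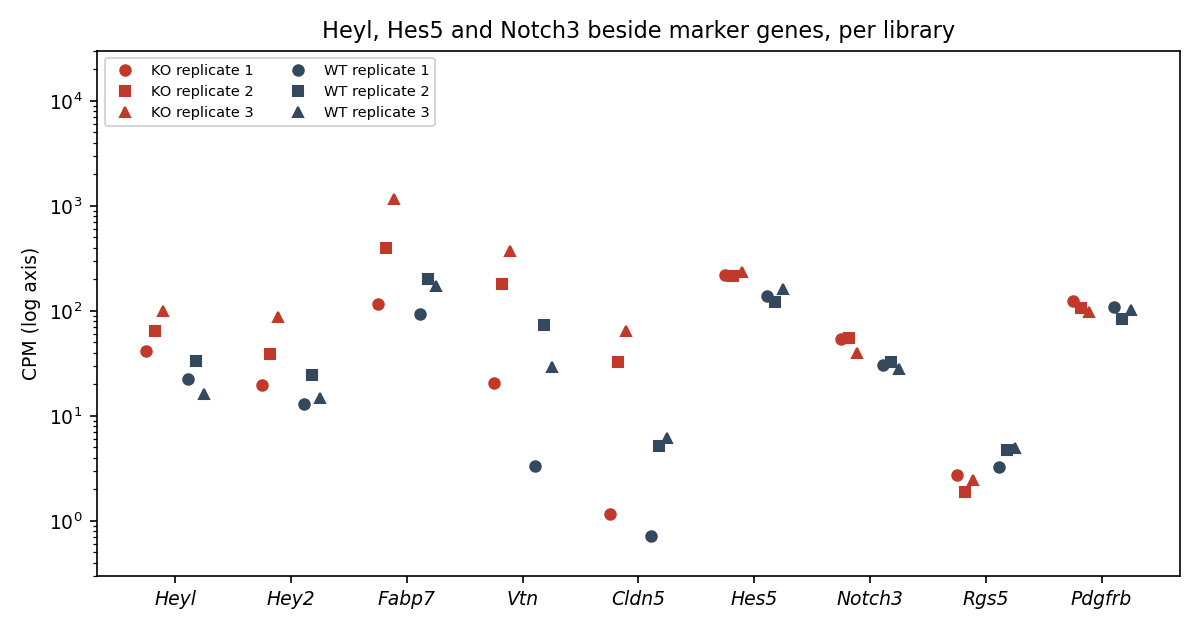
CPM (log axis) of Heyl, Hes5 and Notch3 beside Hey2 and marker genes in the 3 KO libraries (red) and the 3 WT libraries (blue), with the marker shape giving the replicate. Heyl, Hey2, Fabp7, Vtn and Cldn5 are highest in KO replicate 3, while Hes5 spans 213 to 233 CPM in KO, Notch3 is lowest in KO replicate 3 among the KO libraries, and Rgs5 is lower in KO.

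Likeness was measured as the root mean square difference between log2 CPM profiles centred on each gene's mean over the 6 libraries, among 11350 other genes of at least 5 CPM. The genes nearest to Hes5 were Tmem198b (0.098), Igfbp5 (0.102), Rab15 (0.113), Fam198a (0.117) and Rsph9 (0.137). Igfbp5, an insulin-like growth factor binding protein, was at 484 ± 62.4 CPM in KO and 290 ± 16.2 CPM in WT (SD, n = 3 each). The genes nearest to Notch3 were Mapk8ip2 (0.050), Ctxn1 (0.069), Slc12a7 (0.088), Apoe (0.091) and Tox (0.101). Apoe, which encodes the main apolipoprotein of astrocytes, was at 22630 ± 3089 CPM in KO and 15110 ± 2075 CPM in WT. The genes nearest to Heyl were Ifitm3 (0.211), Sntb1 (0.279), Vstm4 (0.290), Hey2 (0.336) and Col23a1 (0.342). These differences are not scaled by a gene's spread, and Heyl varied more over the libraries than Hes5 or Notch3. Their larger size for Heyl therefore does not show that it was matched less closely. Within the 10 genes, the nearest to Hes5 was Notch1 (0.219), the nearest to Notch3 was Hes5 (0.263) and the nearest to Heyl was Hes5 (0.674). With 6 libraries of 2 groups, such likeness follows both the group difference and the spread within groups.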

How the data were processed

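The authors deposited 1 table of estimated counts per gene symbol for 6 libraries, not normalized. Per the submitters' processing notes, TopHat2, featureCounts and the builds GRCm38 and mm9 were used, with no versions or roles. Annotation, handling of shared reads and strand setting of the counting: not given in the sources used here. Counts were rounded to whole numbers. Columns were matched to libraries by name. Replicates differed far beyond sampling noise (chi-square per degree of freedom 22.3 to 89.1), so none was a duplicate.

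KO was compared with WT in edgeR 4.0.16 (R 4.3.3) by the quasi-likelihood F test, with TMM, filterByExpr, robust dispersions and Benjamini-Hochberg adjustment over all 14131 genes tested, threshold 0.05. Values are CPM scaled by TMM, log2 CPM with a prior count of 2, and TPM from exonic lengths of GENCODE M21 (23976 of 24318 symbols matched, 98.6%). Alternatives were RLE, total counts, other low-count filters, DESeq2 1.42.0, limma voom (limma 3.58.1) with quality weights, a replicate block, removal of the GC and length trend by natural splines (4 degrees of freedom), a batch term for the sign of each library's GC trend, and each library left out. Protein sequences were not used here.

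The members, lists and tests were chosen with earlier results of these data known. Named genes are the 10 members, Adgrb1, pathway genes with an unadjusted p under 0.05 or among the 3 of the highest TPM in their role, and the 5 genes most like Hes5, Heyl and Notch3. Others, among them Rbpj, Dtx1, Notch4, Hes2, Hes3 and single marker genes, were chosen after their values were seen.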

Additional observations from a re-analysis of the deposited data

How the results depend on the processing

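The 10 genes kept their direction in all 15 alternatives, except Hes1 and Jag1 in 1 fit each. Leaving out each library in turn, the log2 fold changes ranged from -0.03 to 0.36 for Hes1 and from -0.031 to 0.42 for Jag1, and from -0.45 to 0.58 for Notch4, -0.21 to 0.048 for Rbpj, -0.024 to 0.21 for Ctbp1 and -0.007 to 0.44 for Lfng. Notch4 was at 0.007 with limma voom and 0.02 with the replicate block, Rbpj at 0.17 with the GC and length trend removed and at 0.09 with the batch term for the sign of the GC trend, Psenen at -0.057 with the trend removed and Lfng at -0.069 with the batch term. The cause of these changes was not tested.

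The counts of genes higher and lower in KO over the whole table, 0 and 0 with all 6 libraries and edgeR, were 14 and 62 with DESeq2, 2 and 6 with limma voom, 2 and 4 without a filter on low counts, 3 and 12 with the GC and length trend removed and 14 and 74 with the batch term. Leaving out each library, they ranged from 0 to 4 and from 0 to 27, highest without KO replicate 3. Of the 10 genes and of the wider list, DESeq2 called 2 and the batch term 1. At an unadjusted p under 0.05 there were 330 higher and 541 lower, and 180 and 747 with total counts. Adgrb1, at -1.24 with an adjusted p of 0.0684, passed with DESeq2 (-1.24), limma voom (-1.19), no filter on low counts (-1.24), the trend removed (-1.29), the batch term (-1.34) and without KO replicate 3, and lay between -1.35 and -1.13 when single libraries were omitted. The median of the wider list, 0.02, was at -0.06 with total counts, beside -0.063 for all genes tested. With the GC and length trend removed it was 0.069, beside 0.024 for all genes tested.

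The replicate numbers were not taken to pair the libraries, since the deviations of same-numbered KO and WT libraries correlated at 0.087, 0.151 and 0.282 and the first is under 0.1. Every library correlated best with its own number, for KO replicate 1 by only 0.087 against 0.086, a hint from the data and not from the design. With the replicate block 7 genes were higher and 37 lower, Adgrb1 passed at -1.25, and 0 of the 10 genes were called, with adjusted p of 0.0807 for Hes5, 0.116 for Notch3 and 0.312 for Heyl. Over all 15 alternatives the adjusted p ranged from 0.00901 to 0.9997 for Hes5, from 0.00339 to 0.9997 for Heyl and from 0.0642 to 0.9997 for Notch3. Levels per length depend on the length used. With the longest transcript, chosen after seeing the data, Notch1 made up 59.4% of the receptor level in KO and 60.2% in WT, and Hes5 69.5% and 65.5% of the target level in KO and in WT.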
